A study of Mus musculus with 4 samples.

Results

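The genes described here are 57 widely expressed genes of mouse chromosome 15, from Dab2 near the centromere to Copz1 near the far end. They were chosen by name, as rows of the count table whose symbol was on a list of broadly used genes of that chromosome, and all 57 were found among the 32285 genes of the table. The list was drawn up with the difference between the strains already in view. The values of its members are therefore given as a description. Where members that passed a test run across all genes are counted, the count stands beside the share of all genes that passed, and nothing is read from it. All 57 passed the filter on low counts, as did 16005 genes in all, 664 of them on chromosome 15. A mean of at least 10 CPM was reached by 55, all but Trps1 and Polr2k. Only GS cells were measured, so the breadth of expression across tissues is taken from the list and was not checked here.

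Most genes of a mammalian cell are present in 2 copies, and the RNA of a gene often follows the number of its copies. When a whole chromosome is gained, the many genes along it can shift upward together, some in full and others less, because individual genes are also regulated on their own. Genes used by nearly all cell types, such as those for ribosome assembly, RNA processing or protein degradation, are convenient for reading such a shift, since their level depends less on cell identity. Gains of chromosomes are a known hazard of stem cells kept in culture.

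The cells were GS cells, spermatogonia grown in culture, established from the testes of wild-type mice aged 10 days. The study held 4 libraries, 2 from strain 129 and 2 from C57BL/6 (B6). The titles of both B6 libraries carry the mark F0, which those of the 129 libraries lack and the labels do not explain, so whatever it stands for cannot be told apart from strain. Messenger RNA was sequenced from stranded libraries in single reads of 76 bp, which were counted per gene. The comparison is between the strains, and it asks for the chromosome 15 genes how close their difference comes to the 1.5-fold step that 3 copies in place of 2 would give. Copy number itself was not measured here. The labels do not state whether libraries of 1 strain were grown or isolated separately, so the spread between them, which the tests rest on, may be technical.

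The libraries held 20798809 and 20375086 counts in 129 and 25374801 and 20488618 counts in B6. Germ cell markers were present in all 4 libraries, with summed levels of 1293 and 1734 CPM in 129 against 2377 and 2326 CPM in B6. CPM are counts scaled to a common library size, with TMM factors. Fibroblast markers were also abundant, at 2344 and 880 CPM in 129 against 3556 and 2260 CPM in B6, and 7 of the 8 were higher in 129 replicate 1 than in 129 replicate 2. Sertoli cell markers summed to 217 and 126 CPM in 129 against 18.2 and 21.9 CPM in B6, with Amh below 1 CPM. In such bulk samples fewer cells of a type and less RNA per cell cannot be told apart.

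The chromosome 15 genes were mostly higher in 129 than in B6, by less than 1.5-fold at the median. The median log2 fold change of the 57 members, 129 over B6, was 0.33, against 0.02 over all 16005 genes tested. The other autosomes, over 9479 genes that averaged 10 CPM or more, had a median of -0.05. Each member is therefore given below as its log2 fold change minus that median, called the log2 ratio, with the standard error (SE) of the fit over the 4 libraries. On this scale a 1.5-fold difference is 0.585. The median ratio of the members was 0.37, or 1.296-fold, with quartiles of 0.14 and 0.59 and an SD over members of 0.54. The ratio was above 0 in 49 of the 57 (86.0%).

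**Figure D1:**
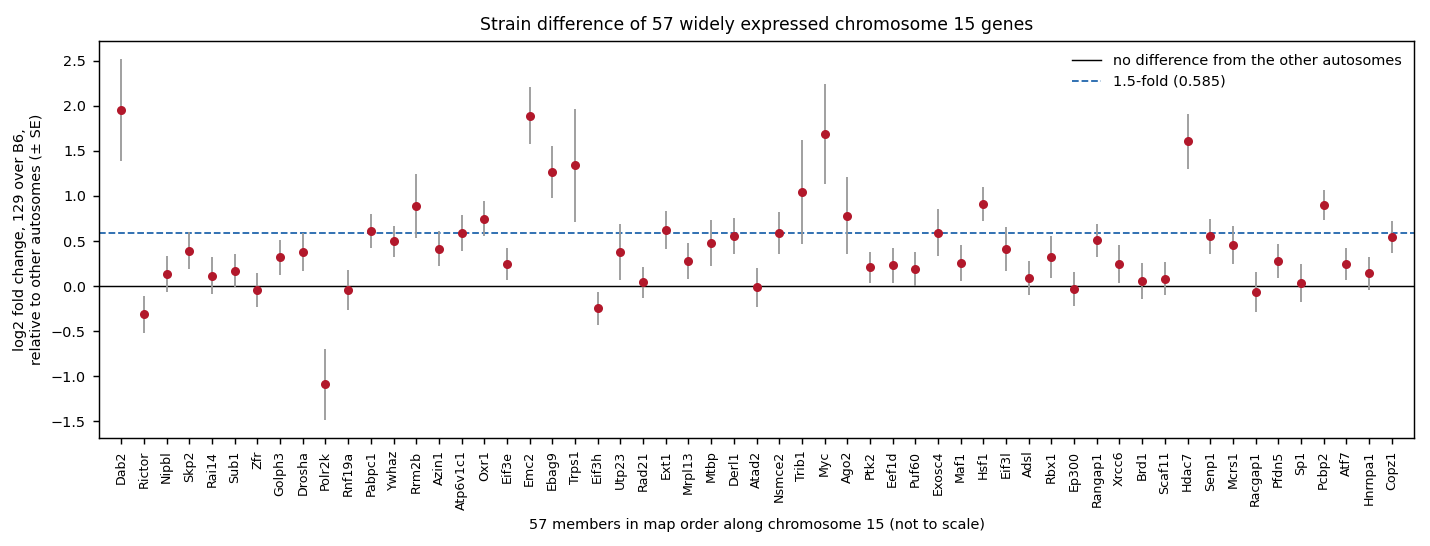
Log2 fold change of 129 over B6 for each of the 57 members, relative to the median of the other autosomes, with genes in map order along chromosome 15 on the horizontal axis and bars of 1 SE. Most points lie between the solid line at 0 and the dashed line at 1.5-fold (0.585), with Dab2, Emc2, Myc and Hdac7 above 1.6 and Polr2k at -1.09.

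Set against a 1.5-fold step, the estimates of the members were widely spread. The ratio of 21 members (36.8%) lay between 0.29 and 0.88, within 0.29 of the 1.5-fold line. Another 24 (42.1%) lay within 0.29 of no difference, 10 (17.5%) lay above 0.88 and 2 (3.5%), Polr2k and Rictor, lay below -0.29. In the same order the shares were 19.1%, 42.4%, 11.6% and 26.9% of the 9479 other autosomal genes at 10 CPM or more. They were 41.4%, 22.6%, 30.4% and 5.6% of the 372 other chromosome 15 genes at that level. Nothing is read from the counts of members. The error of a single gene was wide against this step, with an SE between 0.17 for Pcbp2 and 0.62 for Trps1. The 95% interval of the ratio held both 1.5-fold and no difference in 25 members. It held only 1.5-fold in 15, only no difference in 13 and neither in 4. Of the 9479 other autosomal genes these counts were 3581, 902, 3437 and 1559, from both to neither in that order. Of the 372 other chromosome 15 genes they were 155, 128, 33 and 56.

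The shift was present in every pairing of a 129 with a B6 library. The median ratio of the 57 members was 0.29 and 0.24 for 129 replicate 1 over B6 replicates 1 and 2, and 0.41 and 0.34 for 129 replicate 2 over the same libraries. Between the libraries of a strain the medians were -0.11 in 129 and -0.09 in B6, replicate 1 over replicate 2. In 38 members all 4 such cross pairs were above 0, and in 3 all were below. Of the 9479 other autosomal genes at 10 CPM or more, 2790 had all 4 above 0 and 2845 all below. Of the 372 other chromosome 15 genes at that level, these counts were 263 and 20. Both 129 libraries stood above both B6 libraries in 35 members (61.4%), beside 31% of all genes tested, and below them in Rictor, Polr2k and Eif3h, beside 29.2%. Since the members were chosen with this contrast known, nothing is read from these counts and shares. By edgeR's quasi-likelihood test with Benjamini-Hochberg adjustment over all genes, 2 members, Emc2 and Pcbp2, passed, beside 2.86% of all genes. Both were higher in 129, beside 1.84%. None passed as lower, beside 1.02%, and 18 had an unadjusted p under 0.05, beside 28.1%. DESeq2 called 8, of which Polr2k was the only lower one, beside 15.3% of all genes.

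**Figure D2:**
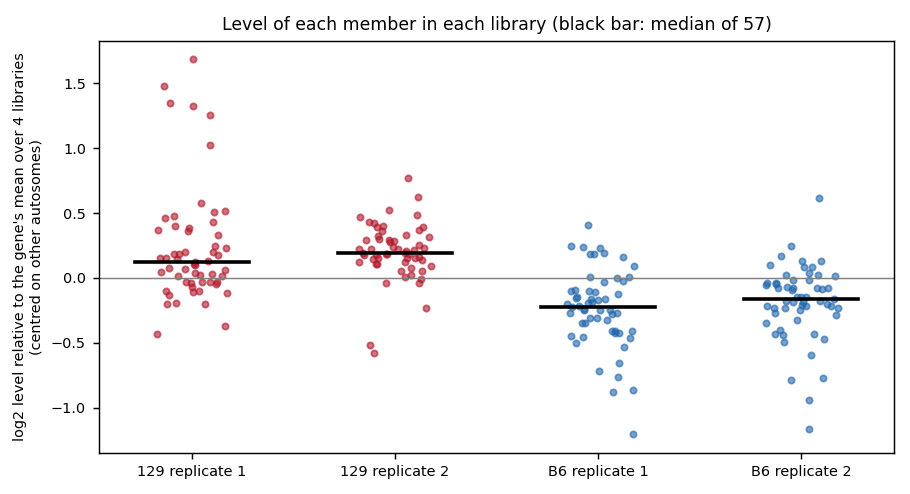
Level of each of the 57 members in each library on the log2 scale, relative to that gene's mean over the 4 libraries and centred on the other autosomes, with black bars for the medians. The medians are 0.12 and 0.19 in 129 and -0.23 and -0.17 in B6, and 129 replicate 1 holds several points above 1.

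Members of membranes, secretion and the nuclear pore stood highest as a group. All 8 had both 129 libraries above both B6 libraries, and their median ratio was 0.57. The same order of libraries was seen in 31% of all genes tested and 66.4% of the other chromosome 15 genes with at least 10 CPM. Those chromosome 15 genes had a median ratio of 0.55, and nothing is read from the place of this group. Emc2, a subunit of the complex that inserts proteins into the membrane of the endoplasmic reticulum, lies at chr15:43477229-43527763 on the plus strand of GRCm38. It had 172 and 93.1 CPM in the 129 libraries, against 37.4 and 36.4 CPM in the B6 libraries, with a log2 ratio of 1.89 (SE 0.31). The 129 libraries were far above the B6 libraries and unequal among themselves, and without 129 replicate 1 the ratio was 1.39. Ebag9, a Golgi protein that restrains regulated secretion, had 36.0 and 44.3 CPM in 129, against 15.3 and 19.3 CPM in B6 (log2 ratio 1.27, SE 0.29). Emc2 and Ebag9 are neighbours in the map order of the members, and in both the lower 129 library stood above the higher B6 library.

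Ext1, a glycosyltransferase that builds heparan sulfate, had 155 and 117 CPM in 129 and 91.2 and 90.5 CPM in B6 (log2 ratio 0.63, SE 0.21). Atp6v1c1, a subunit of the proton pump that acidifies organelles, stood at 91.5 and 83.8 CPM in 129 and 57.1 and 63.5 CPM in B6 (0.59, SE 0.20). Derl1, which moves misfolded proteins out of the endoplasmic reticulum, stood at 115 and 97.5 CPM in 129 and 71.8 and 77.3 CPM in B6 (0.56, SE 0.20). The ratios of Ext1, Atp6v1c1 and Derl1 were within 1 SE of 1.5-fold, and the libraries of the strains did not overlap in any of them. Copz1, a coat subunit of vesicles that return from the Golgi, had 181 and 167 CPM in 129 and 122 and 125 CPM in B6 (0.54, SE 0.18). Rangap1, which activates the GTPase Ran at the nuclear pore, had a log2 ratio of 0.51, and Golph3, a Golgi protein that binds phosphoinositides, had the lowest of the group at 0.32.

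Dab2, Hdac7 and Myc were the other members with a ratio above 1.6, and each had its own pattern over the libraries. Dab2, an adaptor for endocytosis (chr15:6299788-6440712, plus strand), had 56.6 and 17.3 CPM in 129, against 9.40 and 10.3 CPM in B6 (log2 ratio 1.96, SE 0.57). Myc, the transcription factor of cell growth (chr15:61985391-61990374, plus strand), had 32.2 and 10.9 CPM in 129, against 7.11 and 6.68 CPM in B6 (1.69, SE 0.55). In both genes 129 replicate 1 was far above 129 replicate 2, which was still above the B6 libraries. Without 129 replicate 1 the ratio was 0.87 for Dab2 and 0.72 for Myc, and without 129 replicate 2 it was 2.59 for Dab2 and 2.28 for Myc. Hdac7, a class IIa histone deacetylase (chr15:97792664-97844502, minus strand), had 328 and 249 CPM in 129, against 71.2 and 125 CPM in B6 (1.60, SE 0.30). The lower of its 129 libraries was well above the higher of its B6 libraries, and the libraries of each strain also differed between themselves.

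Promoters of the members were set beside all promoters, which were not matched to them in breadth of expression, level or chromosome. RefSeq promoter windows of GRCm38.p6, from 250 bases before to 50 bases after the gene start, were found for 26 of the 57 members by symbol. Shown are the 250 bases before the start, 5′ to 3′ on the gene's strand, for Dab2, Hdac7 and Pcbp2, which had the highest ratios among members whose start matched the gene annotation within 10 bases, and for Racgap1 and Scaf11, which had ratios nearest 0 among them. Capitals mark GC boxes (GGGCGG, or CCGCCC on the other strand) and CCAAT boxes (CCAAT, or ATTGG). The windows are chr15:6299539-6299788 on the plus strand for Dab2, chr15:97844503-97844752 on the minus strand for Hdac7, chr15:102470289-102470538 on the plus strand for Pcbp2, chr15:99651657-99651906 on the minus strand for Racgap1 and chr15:96460844-96461093 on the minus strand for Scaf11.
Dab2: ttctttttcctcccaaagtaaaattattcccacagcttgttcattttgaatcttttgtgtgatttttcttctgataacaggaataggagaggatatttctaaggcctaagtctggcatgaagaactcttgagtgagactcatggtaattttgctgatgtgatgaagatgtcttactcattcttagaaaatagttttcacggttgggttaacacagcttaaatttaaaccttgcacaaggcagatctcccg
Hdac7: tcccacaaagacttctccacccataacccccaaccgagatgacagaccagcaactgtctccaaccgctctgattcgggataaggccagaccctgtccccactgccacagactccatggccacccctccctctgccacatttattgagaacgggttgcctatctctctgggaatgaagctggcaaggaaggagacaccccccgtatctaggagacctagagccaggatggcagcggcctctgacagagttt
Pcbp2: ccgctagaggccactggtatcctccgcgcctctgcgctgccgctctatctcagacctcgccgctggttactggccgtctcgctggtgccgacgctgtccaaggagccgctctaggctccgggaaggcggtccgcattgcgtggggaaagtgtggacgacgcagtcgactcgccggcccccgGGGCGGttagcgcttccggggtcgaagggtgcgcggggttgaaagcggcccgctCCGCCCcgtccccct
Racgap1: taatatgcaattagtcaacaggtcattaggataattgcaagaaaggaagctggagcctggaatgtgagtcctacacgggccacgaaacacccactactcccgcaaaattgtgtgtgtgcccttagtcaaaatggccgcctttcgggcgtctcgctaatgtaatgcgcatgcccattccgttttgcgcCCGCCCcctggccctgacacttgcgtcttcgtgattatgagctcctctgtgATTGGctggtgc
Scaf11: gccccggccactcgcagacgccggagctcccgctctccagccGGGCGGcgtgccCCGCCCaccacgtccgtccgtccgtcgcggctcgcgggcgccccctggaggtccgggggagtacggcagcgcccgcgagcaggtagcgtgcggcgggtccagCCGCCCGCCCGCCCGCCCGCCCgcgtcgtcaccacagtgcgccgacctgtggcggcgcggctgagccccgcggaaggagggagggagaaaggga
The windows of Dab2 and Hdac7 held none of the motifs searched, that of Pcbp2 held 2 GC boxes, that of Racgap1 held 1 GC box and 1 CCAAT box, and that of Scaf11 held 7 GC boxes, overlapping ones each counted.

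Over whole windows of 300 bases the members were rich in G and C. Their median GC content was 62.2%, against 52.7% for all 32851 promoters, and their median number of CpG sites was 25 against 7. A GC box stood in 19 of the 26 windows (73.1%), against 35.7% of all promoters. The CCAAT box was found in 12 (46.2% against 37.4%). The E-box CACGTG, bound by Myc, was found in Atf7 and Sub1 (7.69% against 7.15%). The heat shock pair GAANNTTC, bound by Hsf1, was found in Copz1 (3.85% against 7.86%), and the cAMP response element TGACGTCA, bound by Atf7, in Golph3 (3.85% against 1.79%). Both strands were searched. A match describes letters in the window and not binding. Since the members were chosen as widely expressed genes, nothing is read from their differences from all promoters.

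Trib1 and Trps1 shared the split between the 129 libraries. Trib1, a pseudokinase that guides proteins to degradation, had 171 and 47.5 CPM in 129 and 42.0 and 67.5 CPM in B6 (log2 ratio 1.04, SE 0.57). The strains overlapped, and without 129 replicate 1 its ratio was -0.15. Trps1, a GATA-type repressor and the least abundant member, had 9.90 and 3.22 CPM in 129 and 2.81 and 2.52 CPM in B6 (1.34, SE 0.62), with a ratio of 0.33 without 129 replicate 1. The fibroblast marker list moved in the same direction between these libraries, with a median log2 difference of 1.25, 129 replicate 1 over replicate 2, and so did all 4 macrophage markers, at 20.6 and 8.72 CPM in 129 against 26.0 and 22.6 CPM in B6. Endothelial markers summed to 100.3 and 42.6 CPM in 129 against 9.56 and 15.1 CPM in B6, but only 2 of the 4 were higher in 129 replicate 1 than in replicate 2, with a median log2 difference of -0.18. The part of these cells in the values of Dab2, Myc, Trib1 and Trps1 was not tested. With the 52 members that lay within 2-fold between the libraries of each strain, the median ratio was 0.30.

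The remaining regulators of transcription lay lower, and the median of all 13 was 0.24. Hsf1, the heat shock factor that switches on chaperone genes, had 123 and 136 CPM in 129, against 69.9 and 72.6 CPM in B6 (log2 ratio 0.91, SE 0.19). Both 129 libraries were well above both B6 libraries. Mcrs1, a subunit of chromatin complexes, reached a ratio of 0.45, Maf1, the repressor of RNA polymerase III, 0.26, Atf7, a factor that binds cAMP response elements, 0.24, and the coactivator Sub1 0.17. Sp1, which binds GC boxes, had 241 and 299.5 CPM in 129 and 307 and 239 CPM in B6, with a ratio of 0.03 (SE 0.21). Ep300, an acetyltransferase and coactivator, had 254 and 287 CPM in 129 and 261 and 311 CPM in B6 (-0.03, SE 0.19). In Sp1 and Ep300, as in Brd1 (0.06), a scaffold of an acetyltransferase complex, and Atad2 (-0.01), a bromodomain ATPase, the libraries of the strains overlapped.

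Polr2k was the member furthest below 0. It encodes a small subunit shared by the nuclear RNA polymerases and lies at chr15:36174010-36177010 on the plus strand. Its level was 5.36 and 4.84 CPM in the 129 libraries, against 10.2 and 12.2 CPM in the B6 libraries, with a log2 ratio of -1.09 (SE 0.39). Of its 76-base windows 17.1% also occur in other annotated genes, among them Gm14567 and Gm20305, so its counts could be split between copies.

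The 9 members that act on RNA had a median of 0.38, with Pcbp2, Ago2 and Pabpc1 at the top. Pabpc1, the cytoplasmic poly(A)-binding protein, was the most abundant member per length, with 1721 and 2221 CPM in 129, against 1418 and 1251 CPM in B6 (log2 ratio 0.61, SE 0.19). Its ratio was close to 1.5-fold, and both 129 libraries were above both B6 libraries. Pcbp2, a poly(C)-binding protein that stabilises and represses mRNAs (chr15:102470539-102500061, plus strand), had 648 and 600.0 CPM in 129, against 338 and 353 CPM in B6 (0.90, SE 0.17). The libraries of each strain were close to each other, and the SE was the smallest of the 57. Exons of Map3k12 on the opposite strand cover 30.2% of its exon length.

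Exosc4, a core subunit of the RNA exosome, had 39.4 and 35.7 CPM in 129 and 23.3 and 28.1 CPM in B6 (log2 ratio 0.59, SE 0.27). Drosha, the nuclease that starts microRNA processing, had 404 and 467 CPM in 129 and 291 and 402 CPM in B6 (0.38, SE 0.21). Ago2, the slicing Argonaute, had 96.6 and 83.7 CPM in 129 and 78.2 and 29.9 CPM in B6 (0.78, SE 0.42). Its B6 libraries were unequal: the ratio was 0.21 without B6 replicate 2 and 1.64 without B6 replicate 1. The splicing factors Puf60 (0.19), Hnrnpa1 (0.14) and Scaf11 (0.08) and the zinc finger protein Zfr (-0.04) lay nearer to no difference, and the strains overlapped in all 4.

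The 6 members of translation and ribosome assembly had a median of 0.26 and differed in direction. Eif3l, Eif3e and Eif3h are subunits of the same initiation factor, eIF3. Eif3l had 388 and 428 CPM in 129 and 246 and 389.6 CPM in B6 (log2 ratio 0.41, SE 0.25), with B6 replicate 2 above 129 replicate 1. Eif3e had 195 and 177 CPM in 129 and 169.9 and 155 CPM in B6 (0.25, SE 0.18), with no overlap. Eif3h ran the other way, at 230.1 and 257 CPM in 129 and 270.2 and 328 CPM in B6 (-0.25, SE 0.19), and both 129 libraries were below both B6 libraries. Utp23, a factor of ribosome assembly, had a ratio of 0.37, the mitochondrial ribosomal protein Mrpl13 0.28 and the elongation factor subunit Eef1d 0.23. Several ratios leaned on B6 replicate 1: without it Eif3l had 0.12, Drosha 0.17, Rbx1 0.09 and Mcrs1 0.27, all still above 0.

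Members that handle chromosomes had a median of 0.19. Nsmce2, a SUMO ligase of the SMC5/6 complex, had 60.7 and 67.1 CPM in 129 and 38.7 and 48.9 CPM in B6 (log2 ratio 0.59, SE 0.23). Mtbp, an MDM2-binding protein needed for DNA replication, stood at 40.0 and 52.7 CPM in 129 and 34.6 and 34.3 CPM in B6 (0.48, SE 0.25). The strains did not overlap in Nsmce2 or Mtbp. Rad21, a cohesin subunit, had 542 and 657 CPM in 129 and 605 and 600.1 CPM in B6 (0.04, SE 0.18), and the cohesin loader Nipbl a ratio of 0.14. Xrcc6, the Ku70 subunit of DNA end joining, reached 0.24, and Racgap1, which organises the spindle midzone, -0.06. The strains overlapped in Rad21, Nipbl, Xrcc6 and Racgap1.

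Among the 4 members of the ubiquitin and SUMO pathways, Senp1, a SUMO protease, had 149.9 and 178 CPM in 129 and 110.0 and 121 CPM in B6 (log2 ratio 0.55, SE 0.19). Skp2, the F-box protein that targets cell cycle inhibitors, had 78.2 and 94.1 CPM in 129 and 67.1 and 68.7 CPM in B6 (0.39, SE 0.21). Both 129 libraries exceeded both B6 libraries in each. Rbx1, the RING subunit that works with Skp2 in cullin ligases, had a ratio of 0.33, and the ligase Rnf19a -0.04. In Rbx1 the second B6 library lay only just below the 129 libraries.

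Of the signalling members not yet described, Ywhaz, the 14-3-3 protein zeta, had 221 and 242 CPM in 129 and 164 and 174 CPM in B6 (log2 ratio 0.50, SE 0.17). Ptk2, the focal adhesion kinase, stood at 268 and 301 CPM in 129 and 247 and 262 CPM in B6 (0.21, SE 0.17). The strains did not overlap in Ywhaz or Ptk2. Rictor, the defining subunit of mTOR complex 2 (chr15:6708379-6800401, plus strand), was lower in both 129 libraries, at 215 and 289.5 CPM, than in either B6 library, at 339 and 309.7 CPM (-0.31, SE 0.20). Its ratio was -0.11 without 129 replicate 1 and -0.53 without 129 replicate 2. Rai14, an actin-binding protein, had a ratio of 0.12.

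In metabolism, Rrm2b, the p53-inducible small subunit of ribonucleotide reductase, had 15.1 and 15.1 CPM in 129 and 7.83 and 9.01 CPM in B6 (log2 ratio 0.89, SE 0.35). Azin1, which frees ornithine decarboxylase from its inhibitor, had 203 and 226 CPM in 129 and 148 and 184 CPM in B6 (0.42, SE 0.19). Adsl, an enzyme of purine synthesis, had 128 and 142 CPM in 129 and 124 and 138 CPM in B6 (0.09, SE 0.19), and its strains overlapped where those of Rrm2b and Azin1 did not. Oxr1, which protects against oxidative stress, had 144 and 129 CPM in 129 and 90.3 and 78.1 CPM in B6 (0.75, SE 0.19). Pfdn5, a subunit of the chaperone prefoldin, had a ratio of 0.28, and part of its exon length overlaps Myg1 on the same strand.

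Ratios above 0 were found along the whole of chromosome 15. In map order, the first 19 members, Dab2 to Emc2, had a median ratio of 0.38, the next 19, Ebag9 to Maf1, 0.48 and the last 19, Hsf1 to Copz1, 0.28, with 15, 17 and 17 of them above 0. Across the 57 members Spearman's rho between ratio and position was 0.0016. Over all genes of the chromosome with at least 10 CPM, windows of 10 Mb had medians between 0.34 and 0.94. The highest was the window from 40 to 50 Mb, which holds only 8 genes, 4 of them the members Oxr1, Eif3e, Emc2 and Ebag9. The window from 70 to 80 Mb, with 103 genes, had a median of 0.71, and its 8 members had 0.33. All windows lay above 0.

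**Figure D3:**
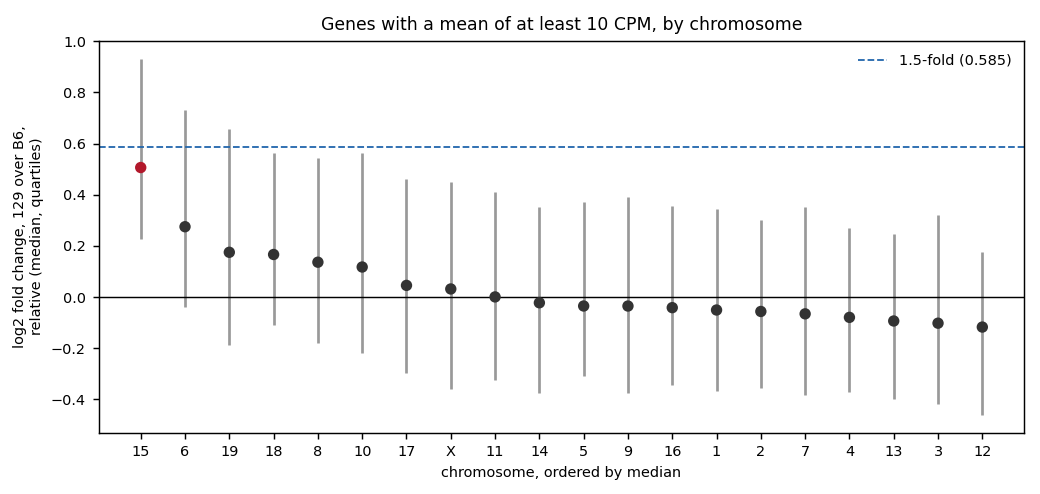
Median log2 fold change of 129 over B6 per chromosome, relative to the other autosomes, for genes averaging 10 CPM or more, with bars for the quartiles and chromosomes ordered by median. Chromosome 15 stands first at 0.51, close to the dashed line at 1.5-fold (0.585), ahead of chromosome 6 at 0.27.

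The members followed the rest of their chromosome, at a smaller size. The other 372 genes of chromosome 15 with at least 10 CPM had a median ratio of 0.55, or 1.46-fold, with an SD of 0.98, and 87.9% of them were above 0. With the members included, chromosome 15 had a median of 0.51 over 427 genes, the highest of the 20 chromosomes. Chromosome 6 came next at 0.27 and chromosome 12 was lowest at -0.12. Within the strains the chromosome 15 medians were -0.07 in 129 and -0.09 in B6, replicate 1 over replicate 2, whereas chromosome 16 reached 0.47 within B6. The difference between members and other genes was not tested, since the members were picked by name.

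Abundant members had smaller ratios than less abundant ones. The 37 members with a mean of at least 100 CPM had a median ratio of 0.24, and the 20 below that 0.59. Spearman's rho of ratio with mean level was -0.45 over the 57 members, which share their 4 libraries. The same direction was seen elsewhere: other chromosome 15 genes had 0.40 at 100 CPM or more and 0.63 at 10 to 100 CPM, and the other autosomes had -0.14 and 0.08. Set against other autosomal genes of at least 100 CPM, the abundant members stood 0.38 higher. Exon length showed little relation to the ratio, with a rho of -0.08. Per kb of exon, levels ran from 0.49 CPM per kb in 129 and 0.20 in B6 for Trps1 to 301 CPM per kb in 129 and 204 in B6 for Pabpc1.

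Many members work in complexes whose other subunits are encoded on other chromosomes. Lists of such partners, written with earlier results of these data known, held 224 genes in 27 complexes and pathways, of which 219 were tested and 211 of these lie off chromosome 15. The 211 had a median ratio of -0.09, and 40.8% were above 0. The other autosomes had -0.14 at 100 CPM or more and 0.08 at 10 to 100 CPM. Members and partners were not matched for level. The median of a list's members lay above the median of its off-chromosome partners in 25 of the 27 lists. Beside this, 87.9% of the other chromosome 15 genes with at least 10 CPM had a ratio above 0. Many lists hold a single member, and Myc stands for both its network and its targets. Nothing is read from this count. The lists where it lay below were those of Polr2k, at -1.09 against -0.11 for RNA polymerase II, and Rictor, at -0.31 against -0.07 for the mTOR complexes. Over the lists the median of the difference was 0.46. The 8 partners that lie on chromosome 15 without being members had a median ratio of 0.35, with 6 above 0. They ran from Smc1b, a meiotic cohesin subunit, with 116 and 159 CPM in 129 and 293 and 241 CPM in B6 (-0.91), to Prr5, a subunit of mTOR complex 2, with 119 and 168.5 CPM in 129 and 51.1 and 85.7 CPM in B6 (1.12). Neither passed with edgeR (adjusted p = 0.0614 for Smc1b and 0.0859 for Prr5), and both did with DESeq2 (adjusted p = 0.0115 and 0.0249).

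**Figure D4:**
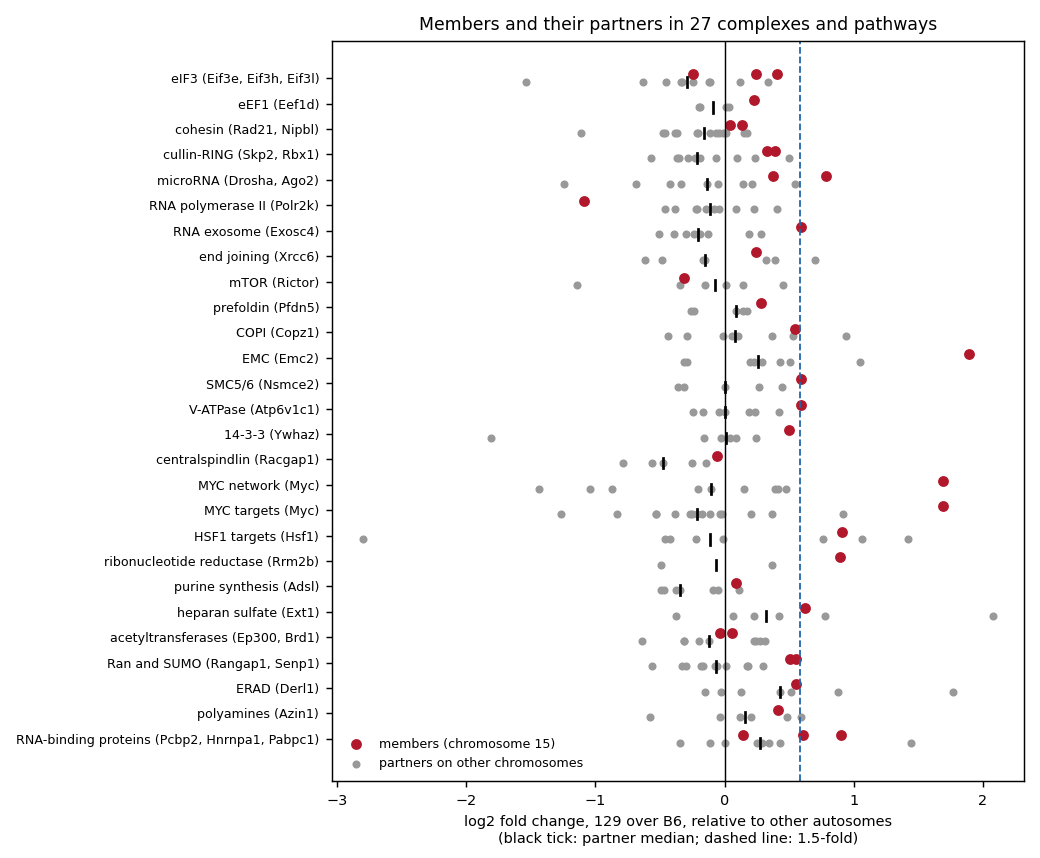
Log2 fold change of 129 over B6, relative to the other autosomes, for the members in each of 27 complexes and pathways (red) and for their partners on other chromosomes (grey), with black ticks at the partner medians. In 25 lists the median of the members lies to the right of the tick. Polr2k, Rictor and, within the list of RNA-binding proteins, Hnrnpa1 lie to the left of theirs.

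The eIF3 complex showed this difference only in part, since Eif3h, at -0.25, lay close to the median of the partners. Its members Eif3e, Eif3h and Eif3l had a median ratio of 0.25, and the 10 partners off chromosome 15 had -0.29. Of the 10 partners 2 were above 0. Among these was Eif3a, the most abundant, at 543 ± 14.9 CPM in 129 and 516 ± 71.8 CPM in B6 (SD, n = 2 each), with a ratio of 0.12. Eif3d, a partner on chromosome 15, had a ratio of 0.08, and exons of other genes cover 43.3% of its exon length. For the cullin ligases of Skp2 and Rbx1 the members had 0.36 and the 11 partners -0.21, and Skp1a, the linker that holds Skp2, averaged 317 ± 11.4 CPM in 129 and 419 ± 5.65 CPM in B6 (SD, n = 2 each). For the exosome Exosc4 stood at 0.59 and its 9 partners at -0.20, with Dis3, the catalytic subunit, at 118 ± 19.0 CPM in 129 and 160 ± 14.7 CPM in B6 (SD, n = 2 each).

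Emc2 stood apart from its own complex. Its ratio of 1.89 compares with a median of 0.26 over 8 partners, and Emc3, the most abundant, had 126 and 144 CPM in 129 and 91.2 and 116 CPM in B6. Copz1 stood at 0.54 against 0.08 for the other coat subunits, where Copa had 474 and 427 CPM in 129 and 467 and 473.5 CPM in B6. These other subunits ran from -0.44 to 0.94, so the highest lay above Copz1. Derl1 stood at 0.56, close to the 0.43 of the 7 partners in the degradation of endoplasmic reticulum proteins. Among them the ATPase Vcp had 341 and 339 CPM in 129 and 356 and 361 CPM in B6. The 7 ran from -0.15 to 1.77. Atp6v1c1 (0.59 against 0.00 for partners), Ywhaz (0.50 against 0.01) and Nsmce2 (0.59 against 0.00) exceeded partner medians near no difference. The partners themselves ran from -0.24 to 0.42, from -1.81 to 0.24 and from -0.36 to 0.44.

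In the remaining lists the median of the members also stood above that of their partners. The cohesin genes Rad21 and Nipbl had a median of 0.09 against -0.16, the microRNA genes Drosha and Ago2 0.58 against -0.13 and the elongation factor subunit Eef1d 0.23 against -0.09. Xrcc6 stood at 0.24 against -0.15 for end joining, Racgap1 at -0.06 against -0.48 for the spindle midzone and Rrm2b at 0.89 against -0.06 for ribonucleotide reductase. These partners are encoded elsewhere, and the 2 of the reductase went in opposite directions. Rrm1, the large reductase subunit, had 230 and 259 CPM in 129 and 344 and 368 CPM in B6 (-0.50). Rrm2 had 63.9 and 64.2 CPM in 129 and 49.1 and 53.6 CPM in B6 (0.37). Anln, the midzone partner anillin, had 118 and 163 CPM in 129 and 191 and 214 CPM in B6. Adsl stood at 0.09 against -0.35, Ep300 and Brd1 at 0.01 against -0.12, Rangap1 and Senp1 at 0.53 against -0.07 and Pfdn5 at 0.28 against 0.09. Ranbp2, the pore protein that holds Rangap1, had 363 and 433 CPM in 129 and 617 and 599 CPM in B6. Ext1 stood at 0.63 against 0.32 and Azin1 at 0.42 against 0.16. The group of Pcbp2, Hnrnpa1 and Pabpc1 stood at 0.61 against 0.27, although Hnrnpa1 alone, at 0.14, lay below the partner median. The 6 partners of Ext1 ran from -0.38 to 2.08, with Extl1 (2.08) and Ext2 (0.78) above Ext1 and the others below it. Those of Azin1 ran from -0.58 to 0.59, and those of the Pcbp2 group from -0.34 to 1.45. None of Rrm1, Anln and Ranbp2 passed edgeR's adjusted threshold of 0.05.

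Listed targets of Hsf1 and Myc had medians below 0, and each list went in both directions. Hsf1 had a ratio of 0.91, and the 8 genes listed as its targets had a median of -0.11. Hsph1, a large chaperone of the HSP110 family, had 388 and 289.8 CPM in 129 and 169 and 166 CPM in B6 (ratio 1.06). The small heat shock protein Hspb1, with 7.49 and 10.5 CPM in 129 and 3.58 and 3.37 CPM in B6, had a ratio of 1.42, and the co-chaperone Bag3, with 64.5 and 55.3 CPM in 129 and 37.0 and 35.9 CPM in B6, had 0.76. All 3 had both 129 libraries above both B6 libraries; none passed with edgeR (adjusted p = 0.0515 for Hsph1, 0.102 for Hspb1 and 0.104 for Bag3), and DESeq2 called Hsph1 and Hspb1 (adjusted p = 0.00304 and 0.0318). Of the windows of Hspb1 46.3% are shared with other genes. In the other direction Hspa1a, an inducible chaperone, fell to 6.86 and 4.41 CPM in 129, against 52.5 and 28.4 CPM in B6 (log2 fold change -2.85, SE 0.44, edgeR's quasi-likelihood test, Benjamini-Hochberg adjusted p = 0.035). Of its 76-base windows 54.0% are shared with Hspa1b or Hspa1l, so its counts are uncertain. Myc had a ratio of 1.69, the 15 genes listed as its targets a median of -0.21 and the 9 genes of its network -0.10. Ncl, nucleolin, the most abundant of these targets, had 992 and 1212 CPM in 129 and 1437 and 1202 CPM in B6. Of the 15 targets of Myc 3 were above 0, and the lowest was Tfrc at -1.27. Ccnd2 was the highest at 0.92, with 835 and 1034 CPM in 129 and 473 and 550 CPM in B6. It did not pass with edgeR (adjusted p = 0.0553) and did with DESeq2 (adjusted p = 0.0102). Protein levels and the activity of Hsf1 and Myc were not measured here.

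Of the 219 partners tested, 1 rose and 3 fell in 129 by edgeR with Benjamini-Hochberg adjustment, beside 1.84% and 1.02% of all genes. Pcbp4, a relative of Pcbp2 on chromosome 9, rose to 219 ± 0.45 CPM in 129, against 83.1 ± 11.1 CPM in B6 (SD, n = 2 each; log2 fold change 1.40, SE 0.19, edgeR adjusted p = 0.032). Stag3, the meiotic cohesin subunit and partner of Rad21, fell to 215 and 272 CPM in 129, against 592 and 494 CPM in B6 (log2 fold change -1.16, SE 0.20, edgeR adjusted p = 0.043). Ago3, a relative of Ago2, fell to 45.3 and 56.2 CPM in 129, against 134 and 115 CPM in B6 (log2 fold change -1.29, SE 0.22, edgeR adjusted p = 0.040). Germ cell markers were lower in 129 in 5 of 5 genes beside the lower Stag3. Markers of undifferentiated spermatogonia, the cells cultured, summed to 1515 and 1941 CPM in 129 against 1212 and 1605 CPM in B6, with 2 of the 8 above and 4 below in both 129 libraries. The part of these cells in the value of Stag3 was not tested. With 129 replicate 1, B6 replicate 1 or B6 replicate 2 left out, none of Pcbp4, Stag3, Ago3 and Hspa1a passed, and their adjusted p ran from 0.0918 to 0.234. DESeq2 called 8 partners higher and 9 lower, beside 9.63% and 5.7% of all genes.

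Counting may affect some members more than others. Whether counting used the strand is not stated in the labels or notes, and in 9 members exons of another gene covered over 5% of the exon length, most in Pcbp2 (30.2%) and Exosc4 (19.8%, Oplah on the opposite strand). In 7 members over 5% of 76-base windows also occurred in other genes, led by Hnrnpa1 at 27.0% and Mcrs1 at 20.8%. Over the 42 members with neither feature the median ratio was 0.35. Alignment of 129 reads used a reference built from the C57BL/6 strain, which can cost 129 reads at strain variants, and the size of that loss was not tested.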

How the data were processed

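RNA was measured in 4 libraries of cultured spermatogonia, 2 of strain 129 and 2 of B6, with strain and replicate number read from the titles. The authors deposited raw counts, 1 value per gene and library. The submitters' processing notes name HISAT2 2.2.1, HTSeq 0.13.5, bcl2fastq 2.20, DESeq2 1.30.1 and cutadapt 3.4, and the build mm10. Their settings and annotation are not stated there. Gene positions were taken from GENCODE M21 (GRCm38), where 32235 of 32285 identifiers were found. Replicate libraries were no duplicates (chi-square per gene 70.4 in 129 and 55.2 in B6).

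The counts of 16005 genes passed filterByExpr and were fitted in edgeR 4.0.16 (R 4.3.3) with TMM factors and robust quasi-likelihood (not the legacy form), strain being the only term and Benjamini-Hochberg adjustment over all genes at 0.05. An SE was obtained by dividing the size of the fold change (log2) by the root of F. The ratio of a member is its log2 fold change minus the median of 9479 genes on the other autosomes that averaged 10 CPM or more. CPM of single libraries use TMM-scaled sizes, and log2 values per library use a pseudocount of 0.5 CPM. The members, the 27 partner lists and the marker lists were chosen with earlier results of these data known. Every member is named, and of each partner list up to 2 called genes, or the most abundant gene where none was called. The further partners Eif3d, Smc1b, Prr5, Hsph1, Hspb1, Bag3, Ccnd2, Tfrc, Rrm2, Ext2 and Extl1 were named after their values were seen. Tested on simulated data for 129 against B6 over 15686 genes, edgeR found 24% of changes of 1 on the log2 scale. It found 84% of changes of 2 and 100% of 3, and 4.94% of its calls were false. The simulated spread depended on level alone, and replicates did not differ in cell content. These rates may therefore not hold for the real libraries. Alternatives were DESeq2 1.42.0 and its size factors, limma-voom (limma 3.58.1), library totals, other filters, the legacy test, a replicate block and leaving out each library; the legacy test and the subsets of members were added after the data were seen. Read counts without molecular identifiers are not counts of independent molecules, so errors of single libraries are not given.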

Additional observations from a re-analysis of the deposited data

How the results depend on the processing

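The median log2 fold change of the 57 members stayed above 0 under all alternatives run: it was 0.33 as reported, 0.38 with library totals and 0.21 to 0.35 with each library left out. Relative to the other autosomes the median was 0.37 as reported, 0.27 to 0.41 with each library left out and 0.30 over the 52 members within 2-fold between the libraries of each strain. Members above 0 numbered 44 to 52 with a library left out, and 41 were above 0 in every alternative. Calls were less stable, and the causes were not tested. Of 457 calls over all genes, library totals gave 1052, no filter 260, a stricter filter 272, DESeq2 2455 and limma-voom 263. Leaving out a library gave 0 to 827: 0 without B6 replicate 1 (3251 genes at an unadjusted p under 0.05), 1 without B6 replicate 2, 13 without 129 replicate 1 and 827 without 129 replicate 2. Of 2 member calls, library totals gave 4, DESeq2 8, the legacy edgeR test 1, and no filter, a stricter filter and limma-voom 0; leaving out a library gave 0 to 3. Of 4 partner calls, library totals gave 7, DESeq2 17 and leaving out a library 0 to 5. Same-numbered libraries did not deviate together over genes (correlation -0.02). With 2 libraries per strain this value cannot show whether they shared a batch, which the labels do not state. With the replicate number as a block there were 844 calls over all genes, 7 among partners and 2 among members, Emc2 and Hdac7. Signs of log2 fold changes near 0 turned in 6 partners: Atp6v1b2 ran from -0.36 (without 129 replicate 1; -0.02 without B6 replicate 1) to 0.59, Copa from -0.13 to 0.013, Ywhae from -0.24 to 0.055, Eif3a from -0.11 to 0.22, Polr2a from -0.23 to 0.01 and Atic from -0.04 to 0.12. With 2 libraries per strain, single members cannot be separated from their spread unless the difference is large.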
